A study of Mus musculus with 24 samples.

Results

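The 29 genes described here are those of the mevalonate and sterol pathway, of the sensor that controls it and of the movement of sterol inside the cell, measured in mouse liver. They were taken by symbol from a table of 78298 gene IDs, and all 29 were found and had enough counts to be tested. The series holds 18 mice of a model of steatohepatitis (fat storage with inflammation of the liver) and 6 normal control mice, with 1 library of liver RNA per mouse. The labels give no diet, duration, strain, genotype, sex, age or time of day, and they do not say whether the model mice were treated in further ways.

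Cells build cholesterol from acetyl-CoA in a chain of enzymes of the cytosol and endoplasmic reticulum, with a branch at farnesyl diphosphate that feeds protein prenylation, dolichol and ubiquinone. The chain is controlled by the transcription factor SREBP2. When sterol is plentiful, INSIG proteins hold SCAP and SREBP2 in the endoplasmic reticulum. When it is scarce, SCAP carries SREBP2 to the Golgi, where the site-1 and site-2 proteases release the part that enters the nucleus and turns the enzyme genes on. The liver is a main site of cholesterol synthesis and also takes up cholesterol in lipoproteins, which are broken down in lysosomes.

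SREBP2 works at sterol elements that often lie beside a CCAAT box, the site of the factor NF-Y. The promoters of 24 of the 29 genes were in a RefSeq table of the GRCm38.p6 build, and 5 are shown because they span the range of responses below, from a gene that was 13.1 times lower in model mice to one with no call. They are the 250 bases before the start of Hmgcs1 (chr13:119690101-119690350, plus strand), Insig1 (chr5:28071162-28071411, plus strand), Cyp51 (chr5:4104698-4104947, minus strand), Idi1 (chr13:8885356-8885605, plus strand) and Mbtps1 (chr8:119558762-119559011, minus strand), each read 5′ to 3′ in the direction of its gene. Capitals mark CCAAT boxes, read as ATTGG where they lie on the other strand, and the best match to the sterol element TCACNCCAC on either strand, with no mismatch in Hmgcs1 and 1 mismatch in Insig1 and Cyp51.
Hmgcs1: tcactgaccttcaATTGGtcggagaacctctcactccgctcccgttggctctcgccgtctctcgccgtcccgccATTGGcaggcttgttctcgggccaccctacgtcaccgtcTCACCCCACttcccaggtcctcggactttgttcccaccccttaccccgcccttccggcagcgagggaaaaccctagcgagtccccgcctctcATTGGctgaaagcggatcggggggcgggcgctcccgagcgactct
Insig1: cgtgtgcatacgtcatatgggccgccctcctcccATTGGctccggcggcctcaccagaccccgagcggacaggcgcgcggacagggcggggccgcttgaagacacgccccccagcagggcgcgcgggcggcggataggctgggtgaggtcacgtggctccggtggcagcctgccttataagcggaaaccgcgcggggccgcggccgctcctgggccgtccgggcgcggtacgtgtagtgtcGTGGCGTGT
Cyp51: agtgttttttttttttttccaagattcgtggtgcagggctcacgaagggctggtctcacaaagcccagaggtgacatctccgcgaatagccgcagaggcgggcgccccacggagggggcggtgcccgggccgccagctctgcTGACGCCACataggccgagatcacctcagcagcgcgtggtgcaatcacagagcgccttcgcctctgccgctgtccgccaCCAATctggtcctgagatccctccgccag
Idi1: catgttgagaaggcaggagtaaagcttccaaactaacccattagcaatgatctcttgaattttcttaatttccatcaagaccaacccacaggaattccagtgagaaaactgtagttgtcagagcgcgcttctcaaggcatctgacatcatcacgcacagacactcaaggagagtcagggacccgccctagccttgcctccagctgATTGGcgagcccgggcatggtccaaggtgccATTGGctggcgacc
Mbtps1: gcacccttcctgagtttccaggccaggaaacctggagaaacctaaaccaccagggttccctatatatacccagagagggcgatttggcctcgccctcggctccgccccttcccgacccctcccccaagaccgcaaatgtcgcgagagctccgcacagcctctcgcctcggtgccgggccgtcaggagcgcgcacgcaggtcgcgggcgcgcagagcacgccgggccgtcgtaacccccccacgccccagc
Hmgcs1 has an exact sterol element and 3 CCAAT boxes, Idi1 has 2 CCAAT boxes and no sterol element within 1 mismatch, and Mbtps1 has neither. Across all 24 promoters a CCAAT box was present in 20, or 83.3%, against 37.5% of 27025 genes in the RefSeq table and 39.8% of the 11327 genes tested that had an entry. It was present in 17 of the 18 members that were lower in model mice and in 3 of the 6 that were not. Acat2, Scap, Mbtps1 and Mbtps2 had none. The Sp1 box GGGCGG stood in 21 of 24 promoters (87.5%), against 35.4% of all genes in the table and 59.9% of the genes tested. An exact TCACNCCAC was found in Hmgcs1 only, 4.17% of member promoters against 1.22% of all genes and 1.38% of those tested. With 1 mismatch allowed, 10 of 24 held it (41.7%, against 23.0% and 25.8%). The E-box letters CANNTG were about as frequent in members as elsewhere, at 66.7% against 69.3% and 62.7%. Both strands were searched in each case, and a match is a description of these letters, not a bound site.

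The libraries held 40.7 ± 7.17 M counts in model mice (SD, n = 18) and 38.7 ± 6.02 M in controls (SD, n = 6), and levels are given in CPM, counts scaled to library size with TMM factors. Alb, the albumin gene of hepatocytes, was abundant in both groups, at 61861 ± 12336 CPM in model mice and 113726 ± 23984 CPM in controls. Of 17 hepatocyte genes, 13 were lower and none higher in model mice, with a median log2 fold change of -0.29, and their summed level was 95777 to 154543 CPM in model mice and 165117 to 238951 CPM in controls. All 12 macrophage genes were higher in model mice, with a median of 3.40 and sums of 220 to 1091 CPM in model mice and 40.8 to 94.8 CPM in controls. Mpeg1, the most abundant of them, averaged 211 ± 61.5 CPM in model mice and 21.4 ± 6.73 CPM in controls. In whole liver, fewer hepatocytes and less RNA of a gene per hepatocyte cannot be told apart. The part of these shifts in the results below was not tested beyond a rescaling of each library to the hepatocyte genes.

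Genes of cholesterol synthesis and sensing were lower in model livers along most of the pathway. Of the 29 members, 23 were lower, 1 was higher and 5 did not pass (quasi-likelihood test in edgeR, threshold 0.05 after adjustment over all genes). Among all 17456 genes tested, 28.8% were lower and 31.2% higher, against 79.3% of members lower. The median log2 fold change of the members was -1.03, against 0.01 for all genes tested. In 15 members (51.7%) the decrease was at least 2-fold, which held for 3.44% of all genes. In 16 members (55.2%) every model mouse lay below every control mouse, a pattern with no overlap that 6.02% of all genes showed in the lower direction and 9.67% in the higher direction. With each library scaled to the hepatocyte genes, 1087 of all 17456 genes tested were lower and 10810 higher. Among the members 18 were lower and 6 higher under that scaling, with a median of -0.60 against 0.44 for all genes. Mvk, Lbr, Ebp, Insig2 and Npc1 were no longer called lower there, and the higher ones were Acat2, Ggps1, Sc5d, Mbtps1, Mbtps2 and Npc2.

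**Figure D1:**
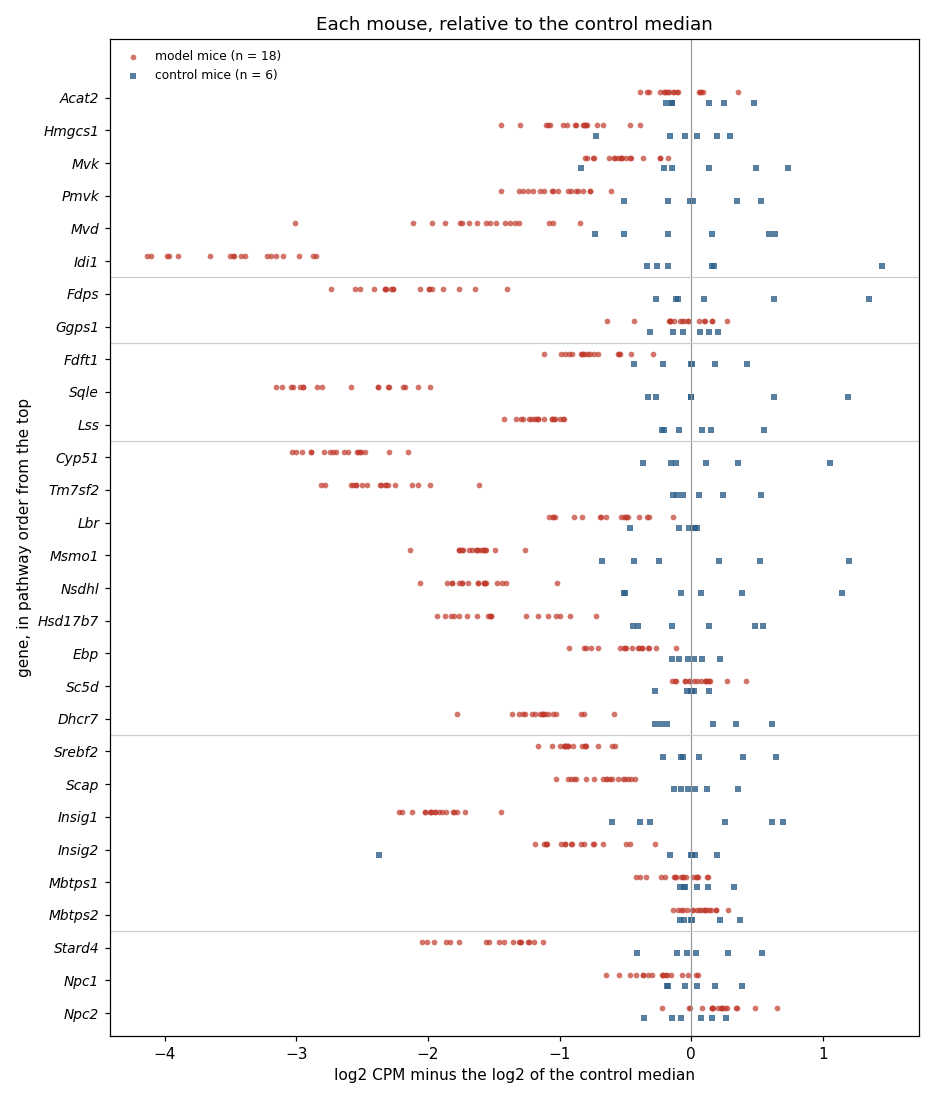
Each point is 1 mouse, placed by its log2 CPM minus the log2 of the control median of that gene, with genes in pathway order from the top and lines between the groups of steps. Model mice (circles, n = 18) lie wholly left of the controls (squares, n = 6) for 16 genes, and Insig2 has 1 control far to the left, at 111 CPM.

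The mevalonate segment turns acetyl-CoA into isopentenyl diphosphate, and 5 of its 6 genes here were lower. Acat2, the cytosolic acetoacetyl-CoA thiolase, was measured at 34.2 ± 4.58 CPM in model mice and 38.9 ± 7.54 CPM in controls and did not pass (log2 fold change -0.19, SE 0.094, adjusted p = 0.0875, edgeR). It passed without control 4 (-0.24, adjusted p = 0.0394) or without model mouse 3 (-0.22, adjusted p = 0.0262). With an index of clock genes as a covariate it was at -0.57, in a fit that leans on control 6, as described below. Hmgcs1, the HMG-CoA synthase of the cytosol, had a lowest, median and highest level of 39.9, 60.3 and 82.7 CPM in model mice, against 65.8, 109 and 133 CPM in controls. Its groups overlapped because control 6 was the lowest control, and 14 of 18 model mice lay below it (log2 fold change -0.83, SE 0.119, adjusted p = 1.27e-06). With control 6 as the only control, Hmgcs1 was at -0.14 and Acat2 at -0.57. That comparison was chosen after seeing the data, its control arm is 1 mouse picked because it stood apart, and its fit assumes that this mouse varies as the model mice do, so its values are a description.

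The 2 kinases that follow differed in size of change. Mvk, mevalonate kinase, averaged 4.48 ± 0.586 CPM in model mice and 6.94 ± 2.56 CPM in controls (log2 fold change -0.63, adjusted p = 0.000309), and no model mouse lay below the lowest control. Pmvk, phosphomevalonate kinase, averaged 9.27 ± 1.42 CPM in model mice and 19.6 ± 5.00 CPM in controls, with no overlap (log2 fold change -1.08, adjusted p = 9.87e-09). Mvd, the decarboxylase that makes isopentenyl diphosphate, was at 0.472, 1.31 and 2.12 CPM (lowest, median, highest) in model mice and at 2.30, 3.81 and 5.91 CPM in controls (log2 fold change -1.61, adjusted p = 9.59e-08). All 18 model mice were again below every control.

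Idi1, the isomerase of isopentenyl diphosphate, showed the largest change of the 29 genes. It lies on chromosome 13 (GRCm39, chr13:8935537-8942487, plus strand). Its lowest, median and highest levels were 0.373, 0.603 and 0.909 CPM in model mice and 5.20, 6.57 and 17.9 CPM in controls. The highest model mouse was far under the lowest control, and among the controls mouse 3 stood apart at 17.9 CPM while the other 5 lay between 5.20 and 7.39 CPM. The level was 13.1 times lower in model mice (log2 fold change -3.71, SE 0.197, adjusted p = 8.81e-14). Without control 3 and across every other library left out in turn, its log2 fold change stayed between -3.82 and -3.33.

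Around the branch at farnesyl diphosphate, the synthase genes did not move alike. Fdps, farnesyl diphosphate synthase, had levels of 4.70, 6.52 and 11.9 CPM in model mice and 26.03, 31.4 and 80.0 CPM in controls (lowest, median, highest), lower by a log2 fold change of -2.50 (adjusted p = 2.36e-11, SE 0.175). No model mouse reached the lowest control. Ggps1, which makes geranylgeranyl diphosphate for prenylation, averaged 8.40 ± 1.19 CPM in model mice and 8.69 ± 1.12 CPM in controls (log2 fold change -0.05, SE 0.098, adjusted p = 0.677). Fdft1, squalene synthase, commits farnesyl diphosphate to sterols. It averaged 63.0 ± 9.41 CPM in model mice and 106 ± 21.9 CPM in controls (log2 fold change -0.76, adjusted p = 4.24e-07), and 17 of 18 model mice lay below the lowest control. The log2 ratio of Fdft1 to Ggps1 within each library, which does not depend on scaling, was 2.91 ± 0.39 in model mice and 3.60 ± 0.38 in controls (difference -0.69, two-sided exact permutation test, p = 0.00177 after Benjamini-Hochberg adjustment over 6 ratios).

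Fdft1 shares 774 exon bases, 18.8% of its exons, with Ctsb on the opposite strand, and Ctsb had 1195% of the counts of Fdft1. Ggps1 shares 257 bases with Arid4b. The sources used here do not say whether counting used strand, and reads in these stretches cannot be assigned to 1 gene with certainty.

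The later squalene steps carried larger decreases. Sqle, squalene epoxidase (GRCm39 chr15:59186926-59203041, plus strand), which adds the oxygen that the first sterol ring needs, had levels of 2.11, 2.91 and 4.75 CPM in model mice and 15.0, 18.8 and 42.9 CPM in controls. Every model mouse was below every control, and the highest control was again mouse 3 (log2 fold change -2.88, SE 0.181, adjusted p = 2.32e-12). Lss, lanosterol synthase, closes the rings. It averaged 10.6 ± 0.947 CPM in model mice and 24.7 ± 5.34 CPM in controls, with no overlap (log2 fold change -1.22, adjusted p = 4.42e-12). Its model mice were the most alike of any lower member, with a coefficient of variation (CV) of 8.92% against 21.7% in controls. Lss shares 381 exon bases with Gm15343 on the opposite strand, which had 57.4% of the counts of Lss.

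Of the 9 genes between lanosterol and cholesterol, 8 were lower and 6 of them at least 2-fold. Cyp51, the cytochrome P450 that removes a methyl group from lanosterol (GRCm39 chr5:4131145-4154746, minus strand), had levels of 10.1, 13.0 and 18.6 CPM in model mice and 64.1, 82.5 and 171 CPM in controls. The model mice lay in a narrow band far below the lowest control (log2 fold change -2.87, SE 0.133, adjusted p = 2.00e-14). Cyp51 shares 166 exon bases with Akap9 on the opposite strand.

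The next step, reduction of a ring double bond, is encoded by a pair of genes, and they did not move alike. Tm7sf2 averaged 23.7 ± 5.19 CPM in model mice and 128 ± 24.6 CPM in controls, with no overlap (log2 fold change -2.44, SE 0.117, adjusted p = 2.00e-14). Lbr, a protein of the inner nuclear membrane that also binds lamin, averaged 3.97 ± 0.774 CPM in model mice and 5.81 ± 0.711 CPM in controls (log2 fold change -0.55, SE 0.122, adjusted p = 0.00037), and 14 model mice lay below the lowest control. The level of Tm7sf2 was 5.94 times that of Lbr in model mice, against 21.9 times in controls, with every model mouse below every control (log2 difference -1.88, exact permutation test, adjusted p = 2.23e-05). Tm7sf2 shares 532 exon bases with Vps51 on the same strand.

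Msmo1 and Nsdhl take off the remaining methyl groups. Msmo1 had levels of 11.1, 15.7 and 20.3 CPM in model mice and 30.5, 48.8 and 112 CPM in controls (log2 fold change -1.89, adjusted p = 2.35e-10). Nsdhl averaged 8.35 ± 1.39 CPM in model mice and 29.5 ± 14.4 CPM in controls (log2 fold change -1.82, adjusted p = 3.00e-10). In both genes the groups did not overlap. Hsd17b7, which reduces the ketone left by Nsdhl, averaged 24.95 ± 6.68 CPM in model mice and 69.1 ± 20.6 CPM in controls (log2 fold change -1.47, adjusted p = 2.72e-08), also with no overlap.

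The last steps included the most abundant enzymes of the chain. Ebp, the sterol isomerase, averaged 157 ± 23.0 CPM in model mice and 223 ± 20.6 CPM in controls (log2 fold change -0.51, SE 0.090, adjusted p = 2.62e-05), and it was at -0.09 (adjusted p = 0.238) with libraries scaled to hepatocyte genes. Sc5d, the desaturase, was at 247, 285 and 366 CPM in model mice and at 226, 274 and 300 CPM in controls and did not pass (log2 fold change 0.09, SE 0.072, adjusted p = 0.306). Under hepatocyte scaling Sc5d was higher, at 0.50 (adjusted p = 3.34e-05). Dhcr7, the reductase that finishes cholesterol, averaged 14.7 ± 2.53 CPM in model mice and 34.4 ± 8.99 CPM in controls with no overlap (log2 fold change -1.22, adjusted p = 2.43e-09).

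**Figure D2:**
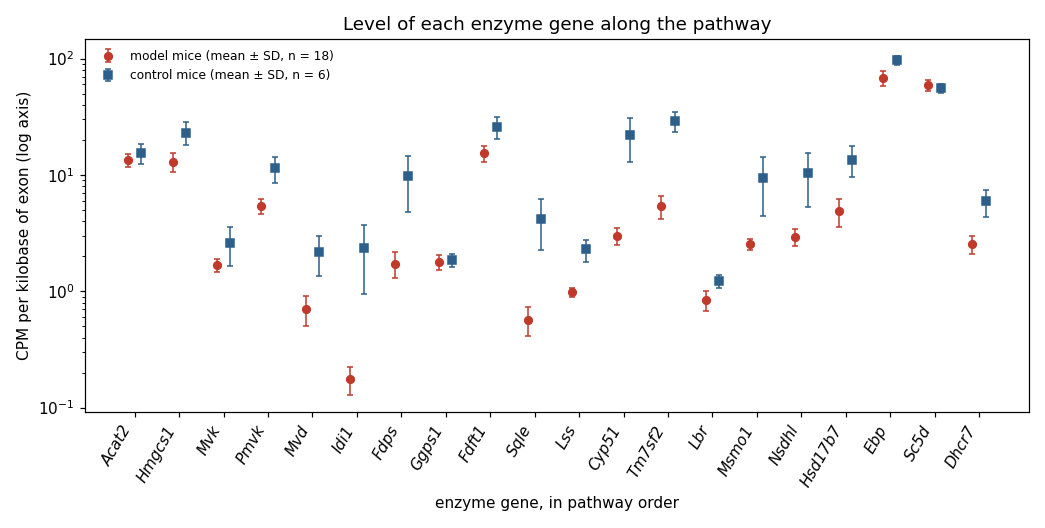
Mean level of each enzyme gene in CPM per kilobase of exon on a log axis, in pathway order from left to right, with SD bars for 18 model mice (circles) and 6 control mice (squares). Ebp and Sc5d stand highest in both groups and Idi1 stands lowest in model mice, at 0.176 against 2.33 in controls.

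Per kilobase of exon, Ebp was at 68.0 CPM in model mice and 96.6 CPM in controls, and Sc5d was at 58.9 CPM in model mice and 55.4 CPM in controls. Cyp51 was at 2.98 CPM per kilobase in model mice and 21.9 in controls, and Tm7sf2 at 5.38 in model mice and 29.2 in controls. Ebp and Sc5d led the 20 enzymes in both groups. The summed CPM of the 20 enzyme genes was 750 ± 57.5 in model mice (range 659 to 873) and 1302 ± 217 in controls (range 1146 to 1669), with no overlap. Without Ebp and Sc5d the sum was 306 ± 29.5 in model mice and 810 ± 187 in controls. These sums describe the enzymes as a whole and carry no test.

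Among the genes of sterol sensing, 4 of 6 were lower, and they covered the factor, its escort and both anchors but neither protease. Srebf2, which encodes SREBP2, had levels of 19.0, 22.2 and 28.4 CPM in model mice and 36.7, 42.5 and 66.2 CPM in controls with no overlap (log2 fold change -1.03, SE 0.089, adjusted p = 5.05e-10). Scap, the escort, averaged 57.1 ± 7.15 CPM in model mice and 94.5 ± 12.1 CPM in controls, also with no overlap (log2 fold change -0.73, adjusted p = 2.80e-08). Mbtps1, the site-1 protease gene, was at 51.1, 65.0 and 74.4 CPM in model mice and 64.4, 68.2 and 85.6 CPM in controls (log2 fold change -0.15, SE 0.076, adjusted p = 0.0861). Mbtps2, the site-2 protease gene, was at 7.31, 8.41 and 9.74 CPM in model mice and 7.58, 8.03 and 10.4 CPM in controls (log2 fold change -0.02, SE 0.071, adjusted p = 0.801).

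The paralogue of the SREBP2 gene went the other way. Srebf1, whose main liver product drives fatty acid synthesis, averaged 95.5 ± 26.2 CPM in model mice and 34.6 ± 12.2 CPM in controls (log2 fold change 1.47, adjusted p = 7.22e-07). The Srebf2 to Srebf1 ratio within a library was 0.250 in model mice and 1.40 in controls, and no model mouse reached the lowest control (log2 difference -2.48, exact permutation test, adjusted p = 2.23e-05). Acat2 relative to Acat1, the mitochondrial thiolase, differed by -0.21 and did not pass (adjusted p = 0.0772, exact permutation test), although it did without control 1 (-0.27), control 4 (-0.29) or model mouse 3 (-0.24). Acat1 itself was at a log2 fold change of 0.03.

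The INSIG anchors differed from each other in how the control mice were placed. Insig1 (GRCm39 chr5:28276361-28283660, plus strand), itself a target of SREBP2, had levels of 26.4, 31.9 and 45.3 CPM in model mice and 81.1, 123 and 199 CPM in controls with no overlap (log2 fold change -2.05, SE 0.126, adjusted p = 1.43e-12). Insig2 (GRCm39 chr1:121232082-121260318, minus strand), which in mouse liver has a transcript that insulin lowers, was at 251, 304 and 472 CPM in model mice. In controls it was at 111 CPM in mouse 6 and at 513 to 655 CPM in the other 5. The model mice thus lay above control 6 and below all 5 other controls. The overall log2 fold change of Insig2 was -0.64 (SE 0.193, adjusted p = 0.00573), and it was -0.86 (adjusted p = 4.39e-07) without control 6. Set against control 6 alone it was 1.55, which restates the low value of that mouse and is no test of the direction. The log2 ratio of Insig1 to Insig2 differed by -1.50 (exact permutation test, adjusted p = 0.000267) and by -0.99 without control 6.

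Control 6 also differed from the other controls in clock genes, while the labels give no time of death. A clock index was taken as the mean log2 CPM of 4 genes that peak late at night minus that of 6 genes that peak by day. It ran from -3.95 to -2.78 in model mice (median -3.39) and from -4.02 to 1.09 in controls, where control 6 held -4.02 and the other 5 lay between -1.17 and 1.09. Between those 5 and the model mice, a difference of group and a difference in clock genes cannot be told apart. Bmal1 had a log2 fold change of -2.53 and Cry1 of -2.27, while Dbp was at 2.68 and Nr1d1 at 2.13. The most abundant genes of these lists, Clock and Tef, were at -0.79 (adjusted p = 1.52e-05) and 0.20 (adjusted p = 0.236).

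With the clock index as a covariate Insig2 was at 0.82, a turned direction, and Insig1 at -2.66. Control 6 was the only control with an index near those of the model mice. The group difference in this fit thus leans on that mouse, and the values of the fit are a description. Control 6, whose clock index lay beside those of the model mice, was above all 18 model mice in 21 of the 23 lower members. The exceptions were Hmgcs1, where it lay within their range, and Insig2, where it lay below them. Control 6 was itself among the controls used to call these members, and in the 16 with no overlap its place was fixed. The share over all genes is not given, so the count is a description. With the clock index in the fit, 3105 of all 17456 genes were lower and 3812 higher. Among the members 23 were lower, but not the same ones, since Acat2 was now called lower and Insig2 was called higher in place of Npc2. With control 6 as the only control, the members' median log2 fold change was -0.81, against 0.08 for all genes. Hmgcs1 was then at -0.14, Mvd at -0.79, Lbr at -0.66, Ebp at -0.51, Npc1 at -0.42, Acat2 at -0.57 and Insig2 at 1.55. These values rest on that control alone and are a description.

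**Figure D3:**
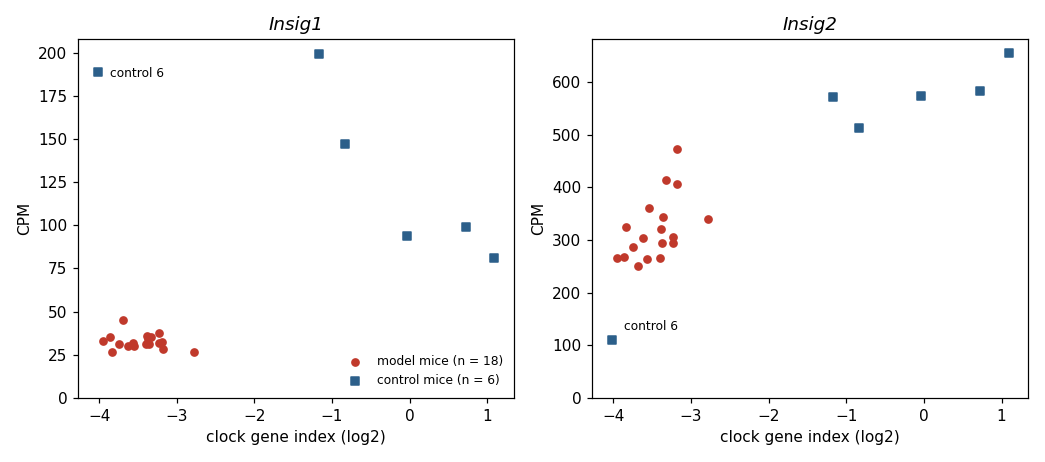
CPM of Insig1 (left) and Insig2 (right) against the clock gene index in log2 units, for 18 model mice (circles) and 6 control mice (squares). Control 6, at an index of -4.02, sits with the high controls for Insig1 at 189 CPM and below all model mice for Insig2 at 111 CPM.

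**Figure D4:**
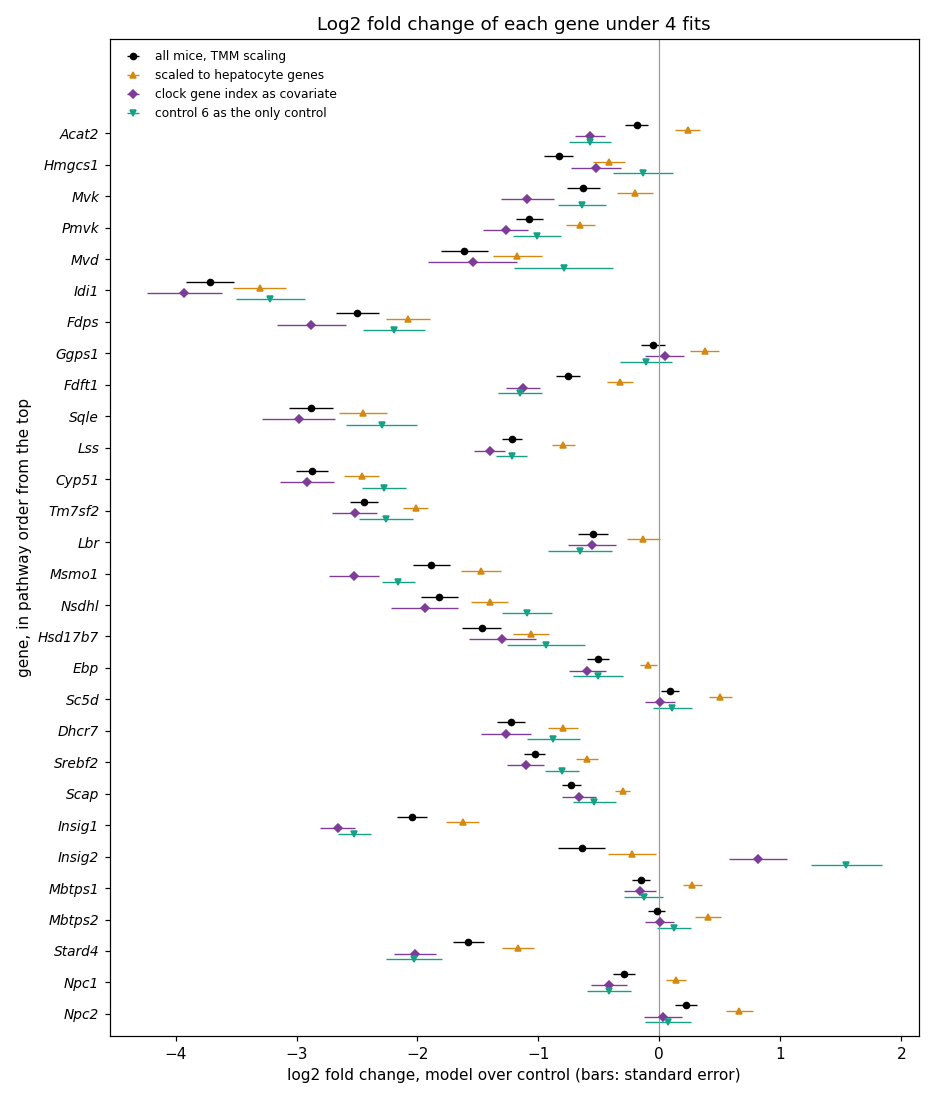
Log2 fold change of each gene, model over control, with standard error bars under 4 fits: all mice with TMM scaling, scaling to hepatocyte genes, the clock gene index as covariate, and control 6 as the only control. Idi1, Sqle, Cyp51 and Tm7sf2 stay far left of 0 under all 4, whereas Insig2 lies at -0.64, -0.23, 0.82 and 1.55.

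Genes that move sterol within the cell gave a mixed picture. Stard4, a soluble carrier of cholesterol between membranes and a known SREBP2 target, averaged 17.2 ± 3.45 CPM in model mice and 51.3 ± 11.8 CPM in controls with no overlap (log2 fold change -1.58, SE 0.126, adjusted p = 1.41e-10). Npc1 and Npc2 together export cholesterol from lysosomes. Npc1, the membrane protein, averaged 115 ± 15.1 CPM in model mice and 141 ± 22.4 CPM in controls (log2 fold change -0.29, SE 0.090, adjusted p = 0.00684), and 12 model mice lay below the lowest control. Npc1 was at 0.14 (adjusted p = 0.153) under hepatocyte scaling, and it shares 511 exon bases with Rmc1 on the opposite strand. Npc2, the soluble partner, was the 1 member that passed in the higher direction, at 103 ± 13.9 CPM in model mice and 88.2 ± 13.4 CPM in controls (log2 fold change 0.22, SE 0.093, adjusted p = 0.0445). Its groups overlapped, with 5 model mice above the highest control, and the call was lost without control 1, 3 or 4 and without any 1 of 12 model mice (adjusted p = 0.0502 to 0.162 in those fits). With the clock index as a covariate Npc2 was at 0.03 (adjusted p = 0.897), and set against control 6 alone at 0.07.

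Other genes around the pathway gave mixed counts, to be read against 28.8% lower and 31.2% higher among all genes tested. Of 13 genes that degrade the sterol-regulated enzymes and INSIG proteins, 9 were lower and 3 higher, with a median of -0.35. Nploc4, an adaptor of the extracting ATPase, was at -0.65 (adjusted p = 3.51e-05). Rnf145, a ubiquitin ligase reported as a target of the sterol-activated receptor LXR in mouse liver, was higher without overlap, at 52.5 ± 11.9 CPM in model mice and 16.7 ± 2.11 CPM in controls (log2 fold change 1.65, adjusted p = 1.16e-09).

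Of 13 genes that use isoprenoids, 4 were higher and 6 lower, with a median of -0.0045. Rabggtb, a subunit of the Rab prenylating enzyme, averaged 41.6 ± 2.33 CPM in model mice and 72.0 ± 4.87 CPM in controls (log2 fold change -0.79, adjusted p = 4.72e-13). Fntb, a farnesyltransferase subunit, was at 0.48 (adjusted p = 0.00148), and Zmpste24, the most abundant, at 0.03 (adjusted p = 0.765).

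Among 11 genes of lysosomal and endoplasmic reticulum sterol transfer, 1 was higher and 5 lower, with a median of -0.04. The higher one was Gramd1b, which carries accessible cholesterol from the plasma membrane to the endoplasmic reticulum, at 11.0 ± 2.47 CPM in model mice and 1.53 ± 0.367 CPM in controls (log2 fold change 2.83, adjusted p = 6.24e-12). Scarb2, a lysosomal membrane protein, was at -0.70 (adjusted p = 9.31e-07) and Lipa, the lysosomal acid lipase, at -0.04 (adjusted p = 0.777). Of 10 genes of lipoprotein receptors and their adaptors, 3 were higher, 3 lower and 4 did not pass, shares close to those of all genes tested. Vldlr, the receptor for very low density lipoprotein, averaged 13.7 ± 5.05 CPM in model mice and 2.14 ± 0.889 CPM in controls (log2 fold change 2.69, adjusted p = 8.54e-08). Dab2, an endocytic adaptor, was at 1.28 (adjusted p = 1.06e-06) and Lrp1, the most abundant, at 0.11 (adjusted p = 0.370).

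A further list held 8 other genes linked to SREBP2, of which 5 were lower and 2 higher, with a median of -0.36. Aldoc, an aldolase, was at -1.31 (adjusted p = 3.76e-05) and Rdh11, a retinal reductase, at -1.16, with 14.3 ± 1.34 CPM in model mice and 31.9 ± 4.21 CPM in controls (adjusted p = 4.48e-13). Tmem97, the most abundant, was at -0.43 (adjusted p = 0.0111).

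With all libraries used, the difference in spread between the groups did not pass the test for any single member. On the log2 scale the mean absolute deviation from the group median was smaller in model mice for 21 of 29 members, against 54.2% of all genes. Its median over members was 0.159 in model mice and 0.240 in controls, and over all genes it was 0.201 in model mice and 0.206 in controls. By an exact permutation test adjusted over all genes, no member was narrower or wider, where 0.0974% of genes were narrower and 0.0115% wider in model mice. At an unadjusted p below 0.05 in the same test, 1118 of all 17456 genes were narrower in model mice. Among the 29 members 5 were: Mvk, Lss, Msmo1, Nsdhl and Insig1. Insig1 came nearest, with a deviation of 0.128 in model mice and 0.478 in controls (exact permutation p = 0.00023, adjusted 0.123), and it passed without model mouse 4 (adjusted p = 0.0247). Part of the control spread lay in 1 mouse, since control 3 held the highest control value in 14 members. In the 15 members at least 2-fold lower, it stood at a median of 1.74 times the median of the other controls. Without control 3 the deviation in model mice exceeded that in controls for Sqle (by 0.111), Idi1 (by 0.125) and Fdps (by 0.0422), and the difference for Cyp51 was -0.0052. Counting error weighs more at low counts, and Idi1 averaged 0.617 CPM in model mice against 8.18 CPM in controls. The part of counting error in these spreads was not tested.

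Within the 18 model mice the members did not rise and fall as 1 unit. Over 105 pairs among the 15 members at least 2-fold lower, the median Pearson r of log2 CPM was 0.22 and 79 pairs were positive. Over all 406 pairs the median was 0.13, with 251 positive. All pairs share the same libraries and scaling, and these values carry no test. At the high end Acat2 and Nsdhl had r = 0.89, and Sqle and Fdps had r = 0.80. At the low end Sqle and Hsd17b7 had r = -0.84 (Spearman rho -0.81), and -0.83 without model mouse 10, which had the lowest Sqle and the highest Hsd17b7.

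Sqle varied 2.25-fold among model mice, from 2.11 to 4.75 CPM, and on the log2 scale the largest gap between neighbouring mice was 0.22 in a range of 1.15. It was set against 10 measures, with p-values from 100000 permutations and Benjamini-Hochberg adjustment over the 10. Sqle rose with Lgals3, a gene of macrophages (r = 0.69, adjusted p = 0.00395; rho = 0.70, adjusted p = 0.0088). It also rose with Col1a1, the fibrillar collagen gene (r = 0.67, adjusted p = 0.00395; rho = 0.70, adjusted p = 0.0088). Against Alb it fell (r = -0.62, adjusted p = 0.0143; rho = -0.61, adjusted p = 0.0291). Without mice 9 and 15, the pair farthest from the median of Sqle, r was 0.79, 0.75 and -0.76 for these genes. Without model mouse 10, r was 0.67 (adjusted p = 0.0129) for Lgals3, 0.70 (adjusted p = 0.0119) for Col1a1 and -0.56 (adjusted p = 0.0434) for Alb, whose rho no longer passed (adjusted p = 0.0722).

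Among its own pathway Sqle was at r = 0.54 with Idi1 (adjusted p = 0.0531), 0.47 with Srebf2 (adjusted p = 0.0785), 0.50 with Npc2 (adjusted p = 0.0652), 0.03 with Stard4 and -0.16 with Insig1, none of which passed. The relation with Npc2 passed without mice 9 and 15 (r = 0.60, adjusted p = 0.0269, permutation test). Without model mouse 10, r with Idi1 was 0.71 (adjusted p = 0.0119). Scd1, a desaturase gene of fatty acid synthesis, gave r = 0.20 and the clock index r = -0.02, and neither passed. The rise of Sqle with Lgals3 ran opposite to the difference between groups, in which Sqle was lower and the macrophage genes higher in model mice. The part of cell composition in the relations of Sqle with other genes was not tested.

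**Figure D5:**
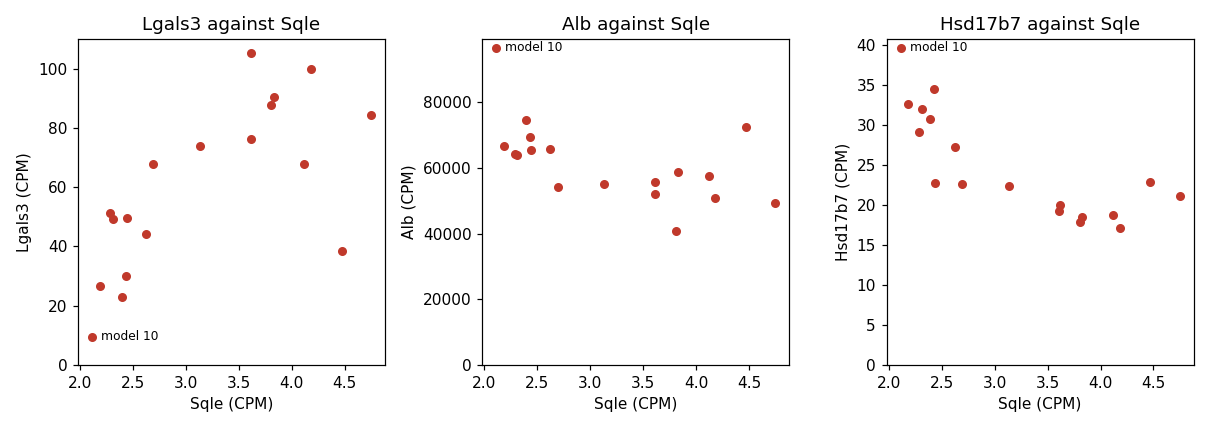
CPM of Lgals3, Alb and Hsd17b7 against CPM of Sqle in the 18 model mice, 1 point per mouse. Lgals3 is higher and Alb and Hsd17b7 are lower in mice with more Sqle, and model mouse 10, at 2.11 CPM of Sqle, lies at the end of all 3 plots.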

How the data were processed

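RNA of 24 mouse livers was captured on oligo(dT) beads, ligated to adaptors and sequenced as DNA nanoballs, per the labels' protocols, which name no step that keeps the strand. The authors deposited raw read counts per Ensembl gene, with exon positions and summed exon length per the file headers, the length being in bases. The build was GRCm39 per the submitters' processing notes. Aligner, counting program, annotation release and strand setting: not given in the sources used here. Symbols came from a reference table and matched 51498 of 78298 IDs, which held 99.6% of counts. For 58 symbols shared by several IDs the one with the most counts was kept. Member coordinates are those of the deposited table, and promoters are from RefSeq on the GRCm38.p6 build, used without conversion.

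Library totals were 31.6 M to 58.4 M counts. No pair of libraries of a group was alike within sampling noise, with a chi-square of at least 17.0 per degree of freedom. Nothing says how the mice were housed or bred, so p-values measure the spread between these animals. Counts without molecular identifiers carry more than counting error.

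Groups were compared with edgeR 4.0.16 (R 4.3.3; robust quasi-likelihood F test, TMM factors, default filter by group, all 24 libraries, group as the only term) and Benjamini-Hochberg adjustment over 17456 genes at a threshold of 0.05. SE is the size of the log2 fold change over the root of F. CPM uses TMM-scaled totals, and TMM factors averaged 1.06 ± 0.061 in model mice and 0.843 ± 0.0285 in controls. Log2 CPM used a prior count of 2 and ratios a count of 0.5. Ratios and spreads had two-sided exact permutation tests over 134596 divisions of the mice, whose smallest p is 7.43e-06. Scripts were tested on simulated data. Other steps ran in Python 3.11.15 with scipy 1.17.1, pandas 2.3.3, numpy 2.4.6 and, for plots, matplotlib 3.10.9.

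Alternatives were other scalings, DESeq2 1.42.0, limma-voom (limma 3.58.1), other filters and thresholds, thinning, a clock index covariate, a replicate block and each library left out. All 29 members are named. From other lists the rule took the 2 called genes with the largest change and the most abundant gene, and from hepatocyte and macrophage genes the most abundant. The members and lists were chosen with earlier results of these data known. Some genes of the pathway and of the other lists are not reported here, including some that the rule took.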

Additional observations from a re-analysis of the deposited data

Results flagged for a closer look

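In 3 of the 29 members 1 control mouse lay apart from the other 5 by Dixon's criterion. It flags about 1 group in 20 by chance, so some flags among 29 members can arise by chance. The share over all genes is not given. Insig2, an anchor of SCAP, was at 111 CPM in control 6, while the other controls were at 513 to 655 CPM. Idi1, the isopentenyl diphosphate isomerase gene, was at 17.9 CPM in control 3, while the other controls were at 5.20 to 7.39 CPM. Lbr, a sterol reductase of the nuclear membrane, was at 4.42 CPM in control 2, while the other controls were at 5.72 to 6.29 CPM. The labels name no difference between these mice and the other controls.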

How the results depend on the processing

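Counts of members lower were 18 to 23 under 14 other settings and 23 to 24 with each library left out in turn. They were 18 with hepatocyte gene scaling, 19 with library totals alone, and 22 with upper-quartile factors and with limma-voom. Of all 17456 genes, 1087 were lower with hepatocyte gene scaling and 1562 with library totals alone. Library totals alone moved the median of all genes to 0.34, and the members' median stayed 1.04 below it on the log2 scale. Calls over all genes were 52.0% higher among those passing, against 62.8% with upper-quartile factors, 85.8% with library totals and 90.9% with hepatocyte scaling. The count of 1 member higher became 0 with RLE factors, DESeq2, no expression filter or a threshold of 0.01, 2 with upper-quartile factors, 4 with library totals and 6 with hepatocyte scaling, and was 0 to 1 with each library left out. With the clock covariate the 1 member higher was Insig2 and not Npc2. Npc2 lost its call without control 1, 3 or 4, or without any 1 of model mice 1, 2, 3, 4, 5, 6, 8, 13, 15, 16, 17 and 18.

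Signs turned in 6 members, and the cause was not tested. The median of all genes also moved, from 0.01 in the main fit to 0.34 with library totals and 0.44 with hepatocyte scaling. Insig2 was at 0.82 with the clock covariate and 1.55 with control 6 as the only control. With library totals, Acat2 was at 0.14, Ggps1 at 0.28, Mbtps1 at 0.18, Mbtps2 at 0.31 and Npc1 at 0.037. With hepatocyte scaling, Acat2 was at 0.23, Ggps1 at 0.37, Mbtps1 at 0.27, Mbtps2 at 0.40 and Npc1 at 0.14. With upper-quartile factors, Ggps1 was at 0.042 and Mbtps2 at 0.072, and with the clock covariate at 0.044 and 0.0018. Mbtps2 was also at 0.0097 with a filter of 1 CPM in 6 libraries, at 0.025 after thinning, at 0.12 with control 6 as the only control and between -0.056 and 0.038 with each library left out.

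The Acat2 to Acat1 difference ran from -0.29 to -0.12 with each library left out, and passed without control 1, control 4 or model mouse 3. The count of members with a narrower spread was 0 to 1. With library totals alone, r of Sqle was 0.63 with Idi1, 0.70 with Srebf2, 0.66 with Npc2, all now passing, and 0.16 with Insig1. It was 0.60 with Npc2 without mice 9 and 15, and without model mouse 10 it was 0.71 with Idi1 and 0.061 with the clock index. The sterol element was in 10 promoters with 1 mismatch allowed, against 1 without.

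The labels number model mice 1 to 18 and controls 1 to 6 without saying that numbers pair mice. Deviations of same-numbered mice correlated at -0.52 to 0.17 over 5000 genes, and 2 of 6 correlated best with their own number. A check of 6 numbers cannot exclude a shared batch, and the main fit did not pair the mice. With the replicate number as a block over the 6 shared numbers, 21 members were lower and 1 higher, against 23 and 1 in the same mice without the block. Mvk was then at -0.48 (adjusted p = 0.0738) and Insig2 at -0.73 (adjusted p = 0.0961, edgeR).

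The smallest member count in any library was 14, in Idi1, against the 3 counts taken as the limit of detection. The 6 controls limit the precision of every comparison, and 1 of them stood apart from the others in Idi1. All but control 6 also lay apart from the model mice in the clock index. For those controls, a difference between groups and a difference in clock genes cannot be told apart.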
